A study of Mus musculus with 7 samples.

Results

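The GATA factors of the embryonic heart and their FOG cofactors are 5 genes of the 23284 gene symbols counted: Gata4, Gata5, Gata6, Zfpm1 (which encodes FOG1) and Zfpm2 (FOG2). They were taken by symbol, and all 5 had enough reads to be tested. RNA came from atrioventricular canals, the constriction of the heart tube between atrium and ventricle where valve tissue starts to form, of outbred NMRI mouse embryos with 18 to 23 somites, staged in the labels at or shortly after embryonic day 9.0 (their titles say 9.5). The null group (4 libraries, replicates 1 to 4) carried the Hand2 d/d allele, a germline deletion of all coding sequence of Hand2, and the wild-type group (3 libraries, replicates 2 to 4) carried none. Each library is a pool of 4 dissected canals and counts as 1 replicate (1 further wild-type pool was not sequenced, as its RNA was of lower quality), so values describe pools of whole tissue and not single cell types.

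GATA factors are transcription factors with a pair of zinc fingers that bind the DNA word GATA. GATA4, GATA5 and GATA6 act in the heart and in endoderm-derived tissue, while GATA1, GATA2 and GATA3 are best known from blood and nervous tissue. FOG proteins ("friend of GATA") do not act through DNA words of their own but bind the amino-terminal finger of a GATA factor, and they recruit the NuRD and CtBP corepressors. In mouse, GATA4 and its contact with FOG proteins are needed for the heart valves and the septa, and GATA4 is a known protein partner of HAND2 on cardiac promoters.

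The members are related in sequence, which matters for reads of 50 nt. The pairs below are the most alike stretches of 60 coding bases, shown to let the relation be seen, 5′ to 3′ on the transcript strand (GENCODE M21, build GRCm38), with capitals at the bases that differ within a pair. The first pair lies in the part that encodes the amino-terminal GATA zinc finger, and the second in a FOG zinc finger.
Gata4: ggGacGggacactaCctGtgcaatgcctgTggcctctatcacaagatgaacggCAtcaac
Gata5: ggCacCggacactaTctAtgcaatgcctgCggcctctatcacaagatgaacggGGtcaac
Zfpm1: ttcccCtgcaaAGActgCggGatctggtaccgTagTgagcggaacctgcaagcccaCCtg
Zfpm2: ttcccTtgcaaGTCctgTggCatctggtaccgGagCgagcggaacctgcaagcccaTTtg
Gata4 (chromosome 14) and Gata5 (chromosome 2) differ at 7 of these 60 bases, and Zfpm1 (chromosome 8) and Zfpm2 (chromosome 15) at 10. The longest exact match between coding sequences was 26 bases for Gata4 and Gata5, 18 bases for Gata4 and Gata6, and 20 bases for Zfpm1 and Zfpm2. No 50-base word of any member was found in another member.

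Of the 3228 such words of Gata5, 5.05% also lie in its overlapping antisense RNA Gata5os, and of the 6449 words of Gata6, 0.682% lie in the antisense RNA 1010001N08Rik. The libraries carry no strand information, so reads there cannot be assigned to one of the partners. The Gata5os row held 34, 49, 54 and 47 reads in null replicates 1 to 4 and 52, 40 and 32 reads in wild-type replicates 2 to 4, against at least 1025 reads for Gata5 in every library.

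The libraries held 27905601 to 44860753 reads in genes, and levels are given as CPM, the reads of a gene scaled to a common total of reads in genes. Hand2 had 7, 26, 10 and 14 reads in null replicates 1 to 4, against 2123, 1224 and 1194 reads in wild-type replicates 2 to 4, so each library matched its genotype label. The summed level of 13 heart muscle markers ranged over 25862 to 33225 CPM in the null group, against 27373 to 30145 CPM in the wild-type group, and that of 5 canal muscle markers over 233 to 317 CPM and 206 to 377 CPM. Of 9 tested epicardial markers none was called, and 1 of the 13 heart muscle markers was, Myh7, where 6.24% of all tested genes were called. Markers of foregut endoderm, which also expresses GATA factors, summed over 12 genes to 5.28 to 31.9 CPM in the null group and 5.50 to 17.3 CPM in the wild-type group. None of the 8 that could be tested was called. Foxa1 and Shh had too few reads to be tested and were at 0 in all wild-type libraries. In null replicates 1 to 4, Foxa1 had 2, 10, 8 and 4 reads and Shh 0, 3, 2 and 20 reads. In pooled tissue, fewer cells of a type and less RNA per cell cannot be told apart.

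All 5 genes were expressed in both genotypes, and none changed past the threshold in null canals. By the quasi-likelihood test of edgeR, with p adjusted over 14290 genes and a threshold of 0.05, 0 of 5 members were called, while 6.24% of all tested genes were (4.11% higher and 2.13% lower in null canals). At an unadjusted p under 0.05 the number was also 0 of 5, against 24.4% of tested genes, and DESeq2 called 0 with 0 under an unadjusted 0.05. The null and wild-type libraries overlapped for each of the 5 genes, while 21.8% of tested genes had no overlap. The estimates were negative for 3 members and positive for 2, with a median log2 fold change of -0.21, where the median of all tested genes was 0.02. These results do not show that the levels are equal, and the intervals below give the changes that remain compatible with the data.

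**Figure D1:**
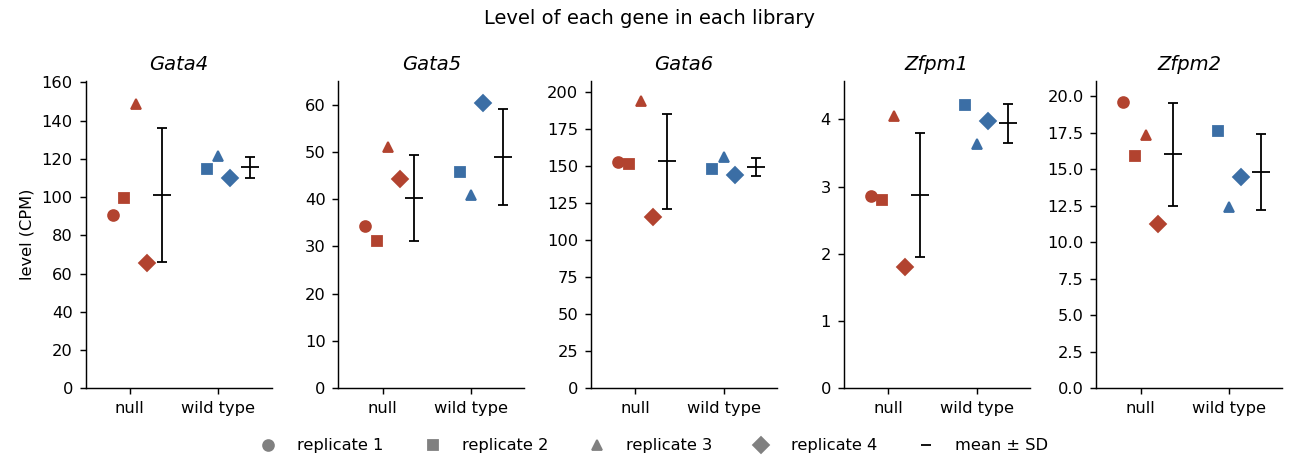
Level in CPM (linear axes that start at 0) of Gata4, Gata5, Gata6, Zfpm1 and Zfpm2 in each null (left) and wild-type (right) library, with the symbol giving the replicate number and bars the mean ± SD (n = 4 and 3). Gata4 lies between 65.4 and 149 CPM in null libraries and between 110 and 121 CPM in wild-type libraries.

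Gata4, required for heart tube closure and for cushion mesenchyme in mouse, had 90.5, 99.6, 149 and 65.4 CPM in null replicates 1 to 4, against 115, 121 and 110 CPM in wild-type replicates 2 to 4. Null replicate 3 was above every wild-type library and the other 3 null libraries were below all of them. The mean was 101 ± 35.0 CPM in null and 115 ± 5.64 CPM in wild-type canals (SD, n = 4 and 3), which is -0.21 as log2 fold change (SE 0.230; edgeR, adjusted p = 0.628). The 95% interval ran from -0.71 to 0.29, which is 0.613 to 1.23 times the wild-type level. Without null replicate 3 the value was -0.47 (unadjusted p = 0.0125, edgeR adjusted p = 0.0752), and without null replicate 4 it was -0.05.

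Gata6, which acts in heart muscle and the outflow tract, had the most reads of the 5 genes. It had 153, 151, 193 and 115 CPM in null replicates 1 to 4, against 148, 156 and 144 CPM in wild-type replicates 2 to 4. The wild-type values fell inside the range of the null ones. The means of 153 ± 31.9 CPM in null and 149 ± 5.92 CPM in wild-type canals gave 0.02 as log2 fold change (SE 0.173; edgeR, adjusted p = 0.954; 95% interval -0.35 to 0.40). That interval corresponds to 0.782 to 1.32 times the wild-type level and was the narrowest of the 5. Its sign changed with the libraries and covariates used, within -0.13 to 0.13.

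Gata5, which in mouse is known from the endocardium and endocardial cushions, had 34.2, 31.2, 51.1 and 44.2 CPM in null replicates 1 to 4, against 45.7, 40.9 and 60.4 CPM in wild-type replicates 2 to 4. Null replicates 1 and 2 were below all wild-type libraries, and wild-type replicate 4 was above every null one. The means were 40.2 ± 9.15 CPM in null and 49.0 ± 10.2 CPM in wild-type canals, which is -0.30 as log2 fold change (SE 0.202; edgeR, adjusted p = 0.396; 95% interval -0.74 to 0.14). Null replicate 2 and wild-type replicate 4 had the highest share of haemoglobin reads in their groups, and with both left out the log2 fold change was -0.00489. They were also the lowest null and the highest wild-type library for Gata5, and leaving out both by itself narrows the difference. The haemoglobin shares were 1.43% in null replicate 2 and 2.18% in wild-type replicate 4, against 0.554% to 0.755% in the other null libraries and 0.923% and 1.29% in the other wild-type libraries. With the haemoglobin share as a covariate over all 7 libraries the value was -0.29 (edgeR adjusted p = 0.587), close to that without it. With null replicate 3 left out it was -0.45 (unadjusted p = 0.0303, edgeR adjusted p = 0.124), and with wild-type replicate 4 left out -0.13 (unadjusted p = 0.563, edgeR adjusted p = 0.757).

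Zfpm2 encodes FOG2, the FOG protein known as the cardiac partner of GATA4, whose loss in mouse causes septal and coronary defects. It had 19.6, 15.9, 17.3 and 11.2 CPM in null replicates 1 to 4, against 17.6, 12.4 and 14.5 CPM in wild-type replicates 2 to 4. Null replicates 1 and 4 enclosed all wild-type values. The means were 16.0 ± 3.54 CPM in null and 14.8 ± 2.63 CPM in wild-type canals (log2 fold change 0.10, SE 0.215, edgeR adjusted p = 0.818, 95% interval -0.37 to 0.57).

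Zfpm1 encodes FOG1, the partner of GATA1 in red cell and platelet precursors, which in mouse is also needed in endothelial cells for the atrioventricular valves. It was the least abundant member, with 107, 92, 116 and 70 reads in null replicates 1 to 4 and 189, 105 and 111 reads in wild-type replicates 2 to 4. These are 2.87, 2.80, 4.05 and 1.80 CPM in null libraries, against 4.21, 3.63 and 3.98 CPM in wild-type libraries. Null replicate 3 fell among the wild-type values and the other 3 null libraries were below them. The means of 2.88 ± 0.920 CPM in null and 3.94 ± 0.292 CPM in wild-type canals gave the largest estimate of the 5, a log2 fold change of -0.47 (SE 0.293), which did not pass the test (edgeR adjusted p = 0.350). Its 95% interval of -1.11 to 0.17 spans 0.464 to 1.12 times the wild-type level. The value was -0.69 without null replicate 3 (unadjusted p = 0.0311, edgeR adjusted p = 0.125) and -0.30 without null replicate 4 (unadjusted p = 0.294, edgeR adjusted p = 0.551). The fit without null replicate 3 called more genes across the table, 946 higher and 652 lower, against 587 and 305 in the main fit. Counting error alone is 12.0% at 70 reads, and it covers reads and not molecules.

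The other FOG1 partners and blood markers were read beside Zfpm1. Gata1, the red cell factor, had 4.61, 16.96, 6.38 and 7.68 CPM in null replicates 1 to 4, against 7.69, 7.37 and 18.0 CPM in wild-type replicates 2 to 4. Its highest libraries were null replicate 2 and wild-type replicate 4, those richest in haemoglobin reads, while Zfpm1 was near its group mean in both. Of 21 tested red cell genes, 1 fell, Klf1, a red cell transcription factor (log2 fold change -1.16, SE 0.298, edgeR adjusted p = 0.0426), and none rose, with a median of -0.41. Of all tested genes 4.11% rose and 2.13% fell, so nothing particular to the red cell list is read from 1 call. Among the 7 fits with 1 library left out, Klf1 was called only in those without null replicate 3 or 4, and it was not called with the haemoglobin share as a covariate (edgeR adjusted p = 0.240). The summed level of the red cell list lay at 5735 to 14802 CPM in the null group, against 9517 to 22395 CPM in the wild-type group. The sum of 8 platelet lineage genes lay at 20.4 to 237 CPM in the null group, highest in null replicate 2, against 20.3 to 35.4 CPM in the wild-type group. None of the 8 was called, and 5 had an unadjusted p under 0.05 by edgeR, as did 24.4% of tested genes. The median log2 fold change of the 8 was 1.53, with all 8 estimates above 0. Of these 8 genes, 6 were called higher with the haemoglobin covariate, 2 with DESeq2, 2 with null replicate 1 left out and 1 with null replicate 3 left out. Over the whole table, 416 of 14290 tested genes were called higher with that covariate and 992 of 14110 with DESeq2. With null replicate 1 left out 284 of 14053 were, and with null replicate 3 left out 946 of 14225. The part of the platelet lineage genes in the Zfpm1 level was not tested. The adult globin rows Hba-a1, Hba-a2, Hbb-b1 and Hbb-b2 were at 0 in all libraries. With the haemoglobin share as a covariate, Zfpm1 had a value of -0.53 (edgeR adjusted p = 0.426), against -0.47 without it.

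Some endothelial markers moved with the genotype, and the list is given beside Zfpm1 and Gata5. Of 18 such genes, 7 rose in null canals and none fell, where 4.11% of all tested genes rose and 2.13% fell. The others were not called, and the log2 fold changes ran from -0.34 to 2.11 with a median of 0.49. The summed level of the 18 genes covered 719 to 786 CPM in the null group, against 481 to 570 CPM in the wild-type group. Of 13 cushion mesenchyme genes, 7 fell and none rose (median -0.75), with sums of 737 to 998 CPM in the null group, against 1025 to 1343 CPM in the wild-type group. With null replicate 1 left out 2 of them fell, as with the haemoglobin covariate in number, and 4 fell with either wild-type replicate 2 or wild-type replicate 4 left out. Their part in the levels of the GATA and FOG genes was not tested.

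**Figure D2:**
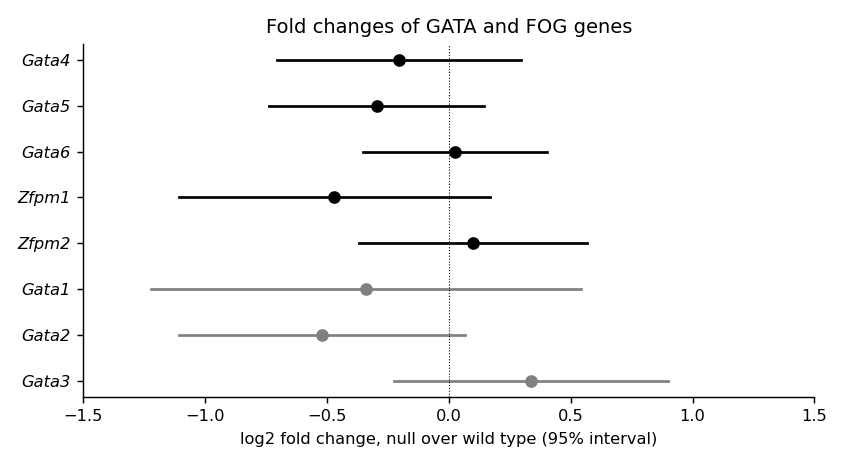
Fitted log2 fold change of null over wild-type libraries (points) with 95% intervals (lines) for the 5 members in black and for Gata1, Gata2 and Gata3 in grey. All 8 intervals include 0, and that of Gata6, -0.35 to 0.40, is the narrowest.

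The remaining GATA factors were also measured. Gata2, a blood and endothelial GATA factor, had 5.38, 6.33, 9.66 and 11.1 CPM in null replicates 1 to 4, against 13.7, 12.3 and 8.42 CPM in wild-type replicates 2 to 4 (log2 fold change -0.52, SE 0.270, edgeR adjusted p = 0.260). Gata3, known from T cells, nervous tissue and epithelia, had 16.3, 15.1, 21.5 and 31.6 CPM in null libraries and 16.99, 12.4 and 20.4 CPM in wild-type libraries (0.34, SE 0.258, edgeR adjusted p = 0.457). The value for Gata1 was -0.34 (SE 0.405; edgeR, adjusted p = 0.650). The groups overlapped for each of these 3 genes. With Trps1 and Gatad1, which share only the GATA-type finger, 0 of 5 were called, where 6.24% of all tested genes were.

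The spread between null pools was wide for Gata4. The coefficient of variation of its CPM was 34.6% over 4 null libraries and 4.88% over 3 wild-type libraries, while counting error was at most 1.98% of its reads. Among 1403 tested genes within 1.5 times its mean level, the median was 14.8% in null and 9.54% in wild-type libraries, and 2.57% had a larger null value than Gata4. For Gata6 the values were 20.9% in null and 3.97% in wild-type libraries, for Zfpm1 32.0% and 7.42%, for Zfpm2 22.1% and 17.7%, and for Gata5 22.8% and 20.8%. Each of the 5 members varied more among null pools, as did 66% of all tested genes, and the difference in spread was not tested. Null replicate 3 was the highest null library for 4 of the members and null replicate 4 the lowest for 4. The highest for Zfpm2 was null replicate 1, and the lowest for Gata5 was null replicate 2. Marker sums did not share 1 order over the null libraries. Null replicates 3 and 4 had the highest and the lowest sum of canal muscle markers, 317 and 233 CPM, but the lowest and the highest sum of endothelial markers, 719 and 786 CPM. The heart muscle sum was highest in null replicate 2, 33225 CPM, then in null replicate 3, 31638 CPM, and lowest in null replicate 4, 25862 CPM. The muscle gene Ttn had 5536 CPM of that sum in null replicate 2, against 1778, 2574 and 1834 CPM in null replicates 1, 3 and 4. So the place of null replicate 2 in that order leans on 1 gene. The cushion sum was highest in null replicate 4. The part of these markers in the spread was not tested.

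Levels of different genes are set side by side only per length. Per kb of annotated exon (3.904 kb for Gata4, 3.277 for Gata5, 6.508 for Gata6, 3.503 for Zfpm1 and 9.536 for Zfpm2), Gata4 had 25.9 ± 8.97 CPM per kb in null and 29.6 ± 1.44 in wild-type canals, and Gata6 had 23.5 ± 4.91 and 22.9 ± 0.910. Gata5 had 12.3 ± 2.79 CPM per kb in null and 15.0 ± 3.10 in wild-type canals. Zfpm2 followed with 1.68 ± 0.371 and 1.55 ± 0.276, and Zfpm1 was lowest with 0.821 ± 0.263 and 1.13 ± 0.0834 (SD, n = 4 null and 3 wild-type). Gata4 and Gata6 overlapped in the null group, and their order there rests on the length used. Per kb of coding sequence Gata4 had 76.2 ± 26.4 and Gata6 86.6 ± 18.1 in null canals, and in wild-type canals they had 87.1 ± 4.25 and 84.4 ± 3.35. On both lengths, the FOG genes were far below the cardiac GATA genes, with a summed FOG to summed GATA ratio per kb of exon of 0.0409 ± 0.00712 in null and 0.0398 ± 0.00588 in wild-type canals. The sum of the 3 GATA genes ranged over 48.0 to 83.5 CPM per kb in null libraries, against 66.0 to 68.8 in wild-type ones.

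**Figure D3:**
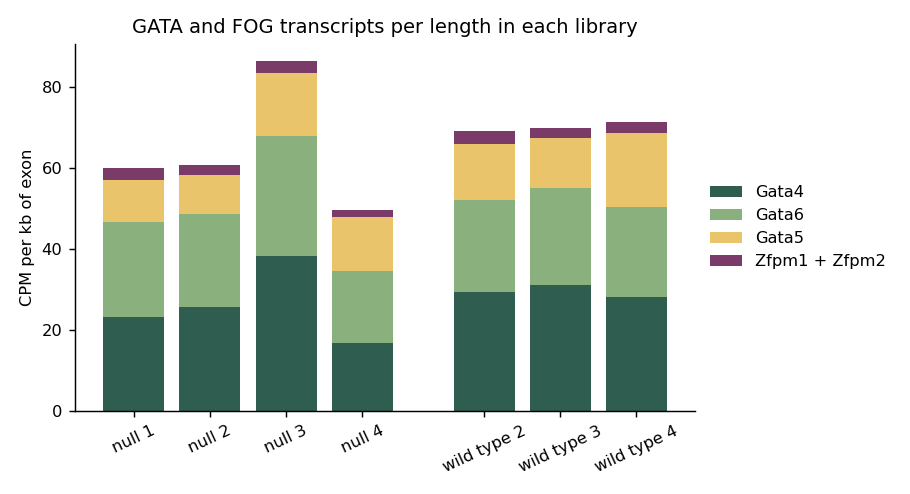
CPM per kb of annotated exon (stacked bars from 0) of Gata4, Gata6, Gata5 and the sum of Zfpm1 and Zfpm2 in each of the 4 null and 3 wild-type libraries. The 3 GATA genes sum to 83.5 in null replicate 3 and 48.0 in null replicate 4, and to 66.0 to 68.8 in wild-type libraries.

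As shares of the 3 cardiac GATA genes per kb of exon, Gata4 made up 41.3% ± 4.73 in null and 43.9% ± 2.59 in wild-type canals, Gata5 20.4% ± 5.28 and 22.1% ± 4.24, and Gata6 38.4% ± 2.52 and 34.0% ± 1.66. The share of Gata6 was 41.1%, 39.8%, 35.6% and 36.9% in null replicates 1 to 4, against 34.4%, 35.4% and 32.2% in wild-type replicates 2 to 4. The null values were all above the wild-type ones, by a small margin between null replicate 3 and wild-type replicate 3. The 3 shares are linked, as each falls where another rises, and this one was picked after its values were seen. In CPM, a different measure, 21.8% of tested genes did not overlap, while Gata6 overlapped with a log2 fold change of 0.02. The share is thus a description with no test. Null replicate 4 had the highest share of Gata5, 28.1%, next to 26.8% in wild-type replicate 4.

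Ratios of reads within a library do not depend on its depth, and of the 10 ratios between members 2 had no overlap between genotypes. For CPM of single genes, a different measure, 21.8% of tested genes did not overlap. No such share was worked out for ratios, and the 10 ratios reuse the same members, so nothing particular to them is read from the count. Zfpm1 had 0.0188, 0.0186, 0.0209 and 0.0156 reads per read of Gata6 in null replicates 1 to 4, against 0.0285, 0.0233 and 0.0276 in wild-type replicates 2 to 4. Every null value was below every wild-type value. Zfpm2 had 6.85, 5.68, 4.28 and 6.26 reads per read of Zfpm1 in null replicates 1 to 4, against 4.18, 3.41 and 3.64 in wild-type replicates 2 to 4. Every null value was above every wild-type value, again narrowly at null replicate 3. Both ratios contain Zfpm1, the member with the fewest reads, and were picked from 10 after their values were seen, so they are a description with no test. Gata6 to Gata4 was 1.69, 1.52, 1.30 and 1.76 in null libraries and 1.29, 1.28 and 1.31 in wild-type libraries, where null replicate 3 fell among the wild-type values.

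**Figure D4:**
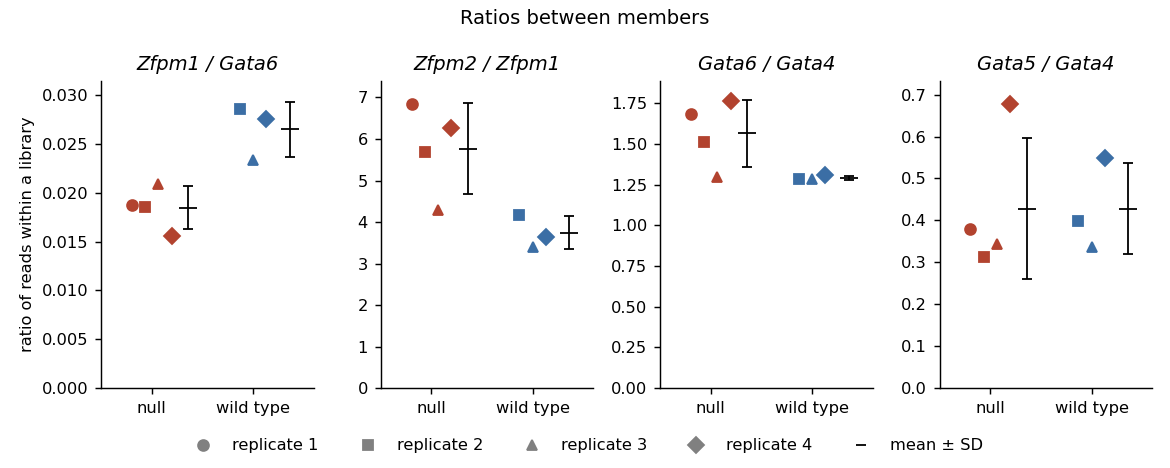
Ratios of reads between pairs of members within each null (left) and wild-type (right) library, on linear axes that start at 0, with bars for the mean ± SD (n = 4 and 3). Zfpm1 per Gata6 lies at 0.0156 to 0.0209 in the null group, against 0.0233 to 0.0285 in the wild-type group, while Gata5 per Gata4 overlaps.

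The genes whose pattern over the 7 libraries was most like each member were found by Pearson's r of log2(CPM + 1), given as a description. Of 12765 genes compared, 248 had r above 0.9 with Gata4, 173 with Gata6, 87 with Zfpm1, 17 with Gata5 and 6 with Zfpm2. The closest to Gata4 were Smad6 (r = 0.995), Mocs3 (0.995) and Rhob (0.990), and the closest to Gata6 were Nrip1 (0.995), Fam46a (0.992) and Pum2 (0.985). For Gata5 they were Tuba1a (0.970), Tigd3 (0.958) and Lyzl4 (0.951), for Zfpm1 Gpc1 (0.970), Smarcc1 (0.969) and Rhou (0.965), and for Zfpm2 Hdac11 (0.934), Ogfod2 (0.933) and Car13 (0.911). None of these 15 genes was called between genotypes, where 6.24% of all tested genes were. They were picked for a pattern like that of members that were not called, so nothing is read from this count.

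Cardiac proteins that act with GATA4, GATA5 or GATA6 were taken as a list of 25, all tested. In null canals 4 rose and none fell, where 4.11% of all tested genes rose and 2.13% fell. The median log2 fold change was 0.26, against 0.02 for all tested genes. By edgeR 9 of the 25 had an unadjusted p under 0.05, as did 24.4% of tested genes. Jarid2, a chromatin protein that binds GATA4 and represses cardiac genes, had 160 ± 15.0 CPM in null and 85.9 ± 1.02 CPM in wild-type canals (log2 fold change 0.89, SE 0.138, edgeR adjusted p = 0.00326). It was called in all 7 fits with 1 library left out. Isl1, a factor of second heart field progenitors, had 13.4 ± 5.76 and 3.88 ± 1.47 CPM (1.77, SE 0.354, edgeR adjusted p = 0.0131). Hey1, a Notch target that represses GATA-driven promoters, had 44.5 ± 14.7 and 20.7 ± 5.36 CPM (1.10, SE 0.281, edgeR adjusted p = 0.0416). Zfp260, a zinc finger partner of GATA4 known from rat heart cells, had 89.2 ± 17.8 CPM in null and 54.4 ± 8.51 CPM in wild-type canals (0.69, SE 0.166, edgeR adjusted p = 0.0311). Isl1 was called in 6 of those fits (not without wild-type replicate 2), Hey1 in 3 (those without null replicate 2, 3 or 4) and Zfp260 in 2 (those without null replicate 3 or wild-type replicate 4). With the haemoglobin covariate neither Isl1 (1.33, edgeR adjusted p = 0.0879) nor Hey1 (0.64, edgeR adjusted p = 0.258) was called, while Jarid2 and Zfp260 were. The number of partners that rose was 1 without wild-type replicate 2, and 2 where null replicate 1 or wild-type replicate 3 was left out.

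The proteins through which FOG factors repress were a list of 15 members of NuRD and CtBP, of which 0 were called by edgeR or DESeq2 and 1 had an unadjusted p under 0.05 by edgeR. Of all tested genes, 6.24% were called by edgeR and 24.4% had an unadjusted p under 0.05. The list is short, so nothing particular to it is read from these counts. The median log2 fold change of the list was -0.15. The 2 most abundant were Rbbp7, a histone-binding NuRD subunit with 794 ± 52.0 CPM in null and 614 ± 67.5 CPM in wild-type canals (log2 fold change 0.35, SE 0.135, edgeR adjusted p = 0.131), and Rbbp4, its paralogue, with 460 ± 148 and 506 ± 65.6 CPM (-0.15, SE 0.239, edgeR adjusted p = 0.752). Without null replicate 3, Ctbp1, a CtBP corepressor, was called lower (edgeR adjusted p = 0.0305), a gene named after its value was seen. In that fit 652 of 14225 tested genes were called lower.

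Genes known as targets of cardiac GATA factors were a list of 22, of which 3 rose and 1 fell in null canals. Of all tested genes 4.11% rose and 2.13% fell. The median log2 fold change of the list was 0.34, and by edgeR 9 of the 22 had an unadjusted p under 0.05, as did 24.4% of tested genes. Myh7, a heart muscle myosin, had 1178 ± 228 CPM in null and 666 ± 27.3 CPM in wild-type canals (log2 fold change 0.80, SE 0.152, edgeR adjusted p = 0.0100). Edn1, the peptide endothelin 1, had 25.8 ± 6.98 and 11.6 ± 1.49 CPM (1.14, SE 0.220, edgeR adjusted p = 0.0111), and Adora1, an adenosine receptor, 51.7 ± 3.27 and 33.7 ± 6.84 CPM (0.60, SE 0.152, edgeR adjusted p = 0.0389). Ccnd2, the cell cycle gene cyclin D2, fell to 466 ± 97.6 CPM in null canals, against 887 ± 174 CPM in wild-type canals (-0.96, SE 0.176, edgeR adjusted p = 0.00846). With wild-type replicate 2 left out, 0 rose and 0 fell, and with wild-type replicate 3 left out, 1 rose and 0 fell. With both null replicate 2 and wild-type replicate 4 left out, 0 rose and 1 fell. In the fit that lacked null replicate 3, 5 rose and 1 fell. Adora1 was called in 2 of the 7 fits with 1 library left out (those without null replicate 3 or wild-type replicate 4), Myh7 and Ccnd2 in 5 (not without wild-type replicate 2 or 3) and Edn1 in 6 (not without wild-type replicate 2). With the haemoglobin covariate Adora1 was not called (0.73, edgeR adjusted p = 0.0551), while the other 3 were.

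**Figure D5:**
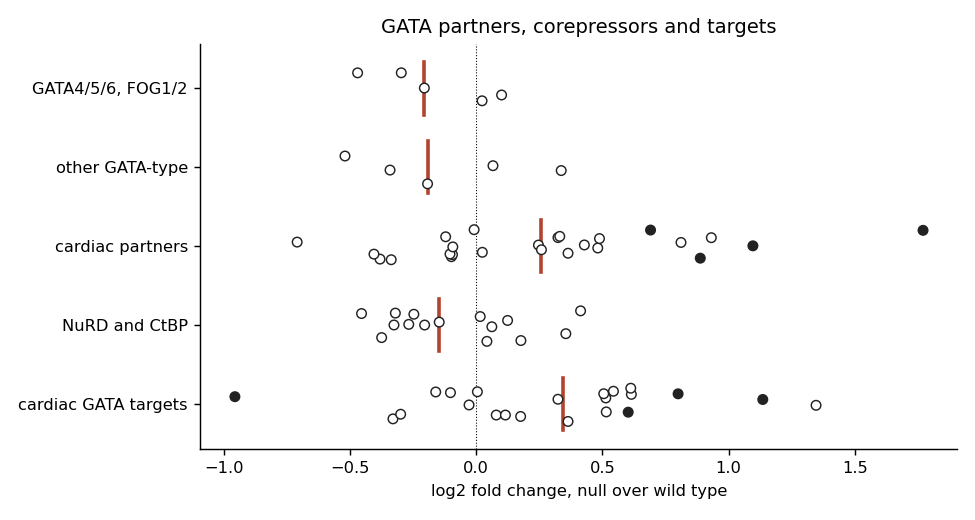
Log2 fold change of null over wild-type libraries for each gene (circles, filled where called at an adjusted p under 0.05) of the 5 members and of 4 lists, with a red line at each list's median. None of the members, of the other GATA-type genes and of the corepressors is filled, while 4 of 25 partners and 4 of 22 targets are.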

How the data were processed

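The files deposited by the authors give whole-number read counts, 1 table for each pool. TopHat2 (2.0.13), HTSeq, SAMtools and the mouse genome mm9 are named in the submitters' processing notes, and how reads were assigned to genes is not stated there. Per the labels' protocols, ribosomal RNA was removed, 8 PCR cycles amplified the cDNA, and reads are single, 50 nt long and unstranded. The 5 summary rows that close each table were kept out of totals and tests. They held 7.31% to 14.2% of reads for no gene, 1.46% to 1.69% for several genes and 9.08% to 13.8% for several places. A count of 3 reads is 0.0669 to 0.108 CPM, depending on the reads in genes of the library.

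The test was edgeR 4.0.16 in R 4.3.3 (quasi-likelihood F test, TMM, default filter with minimum count 10, genotype as the only term, 14290 genes, Benjamini-Hochberg). SE is the log2 fold change over the square root of F, and intervals use 12.0 moderated degrees of freedom. Fits were tested on simulated data. DESeq2 1.42.0, other scalings and filters, a haemoglobin covariate, a replicate term and left-out libraries were alternatives. Lengths come from GENCODE M21 (GRCm38), so no coordinates are given. Nothing in the labels says that pools came from separate litters, so p-values measure the spread between pools.

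The members and all lists were chosen with earlier results of these data known. The genes named are the members, Hand2, Gata1 to Gata3, up to 4 called genes of each list (or the 2 most abundant), the 3 genes most like each member, and overlapping genes. Of the marker lists, whose other genes are given as counts and sums, only Klf1 and Myh7 are named by this rule, which is a departure from it. Foxa1, Shh, Ttn, the adult globins and Ctbp1 lie outside it, chosen with their values known.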

Additional observations from a re-analysis of the deposited data

How the results depend on the processing

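None of the 5 members was called under any of 15 alternatives each. Log2 fold changes with 1 library left out were -0.47 to -0.05 for Gata4, -0.45 to -0.13 for Gata5, -0.13 to 0.13 for Gata6, -0.69 to -0.30 for Zfpm1 and -0.0436 to 0.24 for Zfpm2. The sign of Gata6 and Zfpm2 turned with the replicate block (-0.0269 and -0.0456) and the haemoglobin covariate (-0.0346 and -0.0583), none past the threshold. Gata1 turned to 0.49 with that covariate, and was -0.82 to 0.18 with 1 library left out. Rbbp4 was 0.16 without null 2 and wild-type 4 together, and -0.31 to 0.0545 with 1 left out.

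The counts of genes called higher and lower were 992 and 769 with DESeq2, 298 and 123 without null 2 and wild-type 4 together, 814 and 565 with the replicate block, and 210 to 946 and 46 to 652 with 1 library left out. Partners called higher were 7 with DESeq2, 2 with the haemoglobin covariate and 1 to 6 with 1 library left out. Targets called higher were 5 with DESeq2, 7 with the block, 0 without both libraries and 0 to 5 with 1 left out, and those called lower 0 to 1. Corepressors called lower were 0 to 1. Same-numbered pools deviated with correlations of -0.0858, 0.413 and 0.260 for replicates 2, 3 and 4, against -0.369 to 0.180 between pools of different numbers. Those of replicates 3 and 4 were thus above all others, and whether the numbers mark shared batches was not tested. The labels give genotype as the only factor, so the main fit holds no pairs and the replicate block is an alternative. Per coding length, Gata4 made up 41.1% of the 3 GATA genes in wild-type canals and Gata6 44.4% in null and 39.8% in wild-type canals, and the FOG to GATA ratio was 0.0290 in null and 0.0265 in wild-type canals. Depth limits Zfpm1 most, with 70 to 189 reads.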

Other observations

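No member, ratio or share in the null group stood apart by Dixon's test in 22 sets of 4 null libraries. The nearest was the Gata5 to Gata4 ratio per kb of exon in null replicate 4, 0.806, next to 0.451 in null replicate 1, with a gap of 0.821 of the range, just under the 95% limit for 4 samples. In wild-type replicates 2 to 4 that ratio was 0.473, 0.402 and 0.653.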
